A study of Gossypium hirsutum with 2 samples.

Results

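The promoters described here belong to genes of the ubiquitin system and to protease and peptidase genes that carried a peak of GhD53 in upland cotton (Gossypium hirsutum). They were 79 of the 2111 genes with a promoter peak (3.74%). They were chosen by the words of the description of each gene's best protein hit (ubiquitin, F-box, U-box, RING finger, RING-H2, proteasome, cullin, BTB/POZ, protease or peptidase). Genes with a transcription factor family and descriptions with kinase, chloroplast or mitochondri were left out, which removed 8 of the 87 genes that carried such a word. Each of the 79 genes had 1 peak.

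Ubiquitin marks proteins for destruction. An activating enzyme (E1) hands it to a conjugating enzyme (E2), and a ligase (E3) then places it on the target. Some ligases are single proteins with a RING or U-box domain, and others are complexes in which a cullin holds an F-box or BTB adaptor that picks the target. The 26S proteasome degrades marked proteins, and deubiquitinases remove the mark. D53 proteins are strigolactone signalling repressors which, in rice, are themselves degraded through an F-box ligase once the hormone is perceived.

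Binding was measured by DNA affinity purification sequencing. A tagged GhD53 protein made in vitro was mixed with naked genomic DNA from fiber, the single-celled seed hair, and bound fragments were sequenced. There was 1 purified library and 1 input library, so no spread between replicates exists and no test was run on any difference given here. A purification without the protein was not analysed here, and enrichment through the protein and through other effects of the purification cannot be told apart.

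The authors' 2 lists of promoter peaks from this pair of libraries, a shorter one of 756 and a longer one of 2183 peaks, are not independent of each other. All values below are the authors' own from the longer list unless stated otherwise. The files do not define these columns further. Pileup, a whole number at every peak, was read here as the number of fragments over the summit in the purified library, and fold as the ratio of that signal to its background, a value recovered here as (pileup + 1) / fold − 1. Of the 79 peaks 74 lay on the lowest background, 0.608. There, fold follows from pileup alone, so a pileup of 4 always gave 3.11-fold, 5 gave 3.73-fold, 6 gave 4.35-fold and 7 gave 4.98-fold. Depth was known only through the pileups. Exact Poisson 95% intervals, which rest on this reading and cover counting error only, ran from 1.09 to 10.2 for a pileup of 4, from 1.62 to 11.7 for 5 and from 4.12 to 17.1 for 9. All members with a pileup of 4 to 9 therefore overlapped within counting error, and their order by fold is not resolved at this depth.

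The degradation genes carried mostly faint promoter peaks. Their pileup ranged from 4 to 26 with a median of 5, and their fold from 2.99 to 9.62 with a median of 3.73, the same medians as over all 2183 peaks. The lowest pileup of the longer list is 4, and 26 of the 79 peaks had it, or 32.9% (Wilson 95% interval 23.6 to 43.9), against 19.7% of all peaks. A fold of 5 or higher was reached by 6 members (7.59%, interval 3.53 to 15.6), against 12% of all peaks. With 52 members at a q-value of 0.05 or below, their share (65.8%, interval 54.8 to 75.3) compares with 79%. Of the members 3 had a q-value of at most 1e-05, against 10.4% of all peaks. A peak in both lists was found at 21 genes (26.6%, interval 18.1 to 37.2), against 34.3% of all 2111 genes. The intervals for a pileup of 4 and for a q-value of 0.05 leave out the share over all peaks, and nearly the same faint peaks set both shares. The intervals for a fold of 5 and for both lists cover the share over all, so at these 2 marks the members were not distinguishable from the whole list. That for a q-value of 1e-05 (1.30 to 10.58) only just covers the 10.40% of all peaks and leaves out the 10.65% of the other peaks. A pileup of 7 or more was found at 15.2% of the members (8.91 to 24.70), an interval that only just leaves out the 24.87% of all peaks. The reading therefore depends on the mark. The 63 ubiquitin system genes had a pileup of 4 at 23 peaks (36.5%, interval 25.7 to 48.9). The 16 protease and peptidase genes had it at 3 (18.8%, 6.59 to 43.0), against 19.7% of all peaks. The intervals of these 2 groups overlap, and their difference was not tested.

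**Figure D1:**
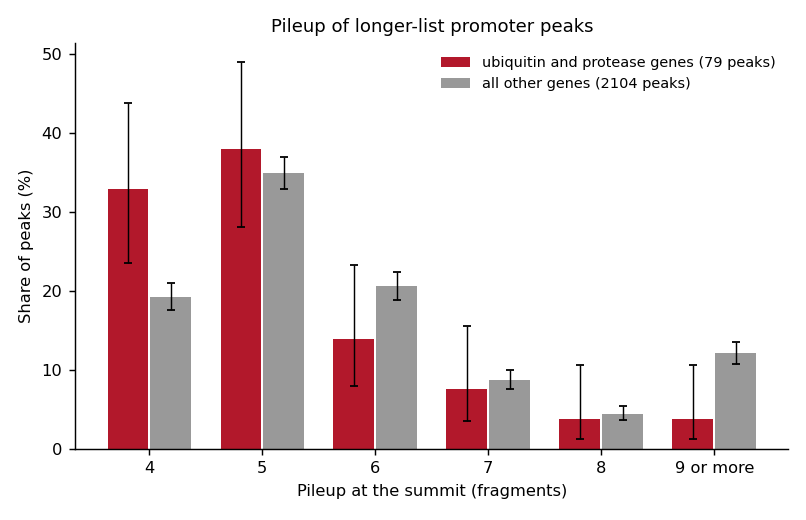
Share of longer-list promoter peaks in percent at each summit pileup in fragments, for the 79 peaks of the ubiquitin and protease genes and the 2104 peaks of all other genes. Bars are shares and lines Wilson 95% intervals, which cover counting error only. At a pileup of 4 the bar of the degradation genes stands at 32.9% and that of the other genes at 19.2%. At 9 or more the bars stand at 3.80% and 12.1%, with intervals of 1.30 to 10.6 and 10.8 to 13.6.

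A pileup above 20 was found at 1 member peak (1.27%, Wilson interval 0.224 to 6.83), against 5.31% of all peaks, a share within that interval. The rule on chloroplast descriptions took out the tall peaks of GH_A05G0906 and GH_D06G0180, described at the end, and on the lowest background only 1 other peak was above 20. On the lowest background alone, 25 of 74 member peaks (33.8%) and 22.4% of the other peaks had a pileup of 4. Among other genes with an informative description the share was 20.1%. A pileup of 7 or more was found at 13.5% of the members on the lowest background (interval 7.51 to 23.1). This interval covers the 18.3% of the other peaks there. For a pileup of 9 or more the members' share was 1.35% (0.239 to 7.27), and its interval covers the 5.42% of the others.

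A pair of promoters led the group. GH_D09G0915, an F-box/kelch-repeat gene, whose type of protein is the target-choosing adaptor of a cullin ligase, had the highest fold. Its peak on chromosome D09 (33449058 to 33449490) was centred 1366 bp upstream and was 433 bp long, with a pileup of 17 (Poisson interval 9.90 to 27.2) and 9.62-fold enrichment (5.83 to 15.1 with the background held fixed). GH_A03G1308, a U-box ligase gene related by description to plant U-box protein 21, had the highest pileup, 26 (17.0 to 38.1). Its peak on chromosome A03 (73033160 to 73033329) lay 877 bp upstream, was only 170 bp long and had 6.65-fold enrichment (4.43 to 9.63). Its background, 3.06, was the highest under any member, which is why it ranks first by pileup and second by fold. The background at GH_D09G0915 was 0.871. The −log10 q-value was 13.0 at GH_D09G0915 and 12.0 at GH_A03G1308. The counting interval of GH_A03G1308 lay above those of all members with a pileup of 8 or less, whose upper bounds reached 15.8, while that of GH_D09G0915 still overlapped them. This separation is one of pileup, across unlike backgrounds, and not of enrichment. The fold intervals of both genes overlapped that of a pileup of 4 on the lowest background, 1.30 to 6.99. Overlap of intervals alone does not settle whether their enrichment differed from that of the faint peaks, and this was not tested. The −log10 q-value of a pileup of 4 on the lowest background was 0.917. Next came GH_A06G2038, an ATL69-type RING-H2 gene, with a pileup of 9, 6.22-fold and a −log10 q of 5.25. Its counting interval overlapped those of all weaker members.

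**Figure D2:**
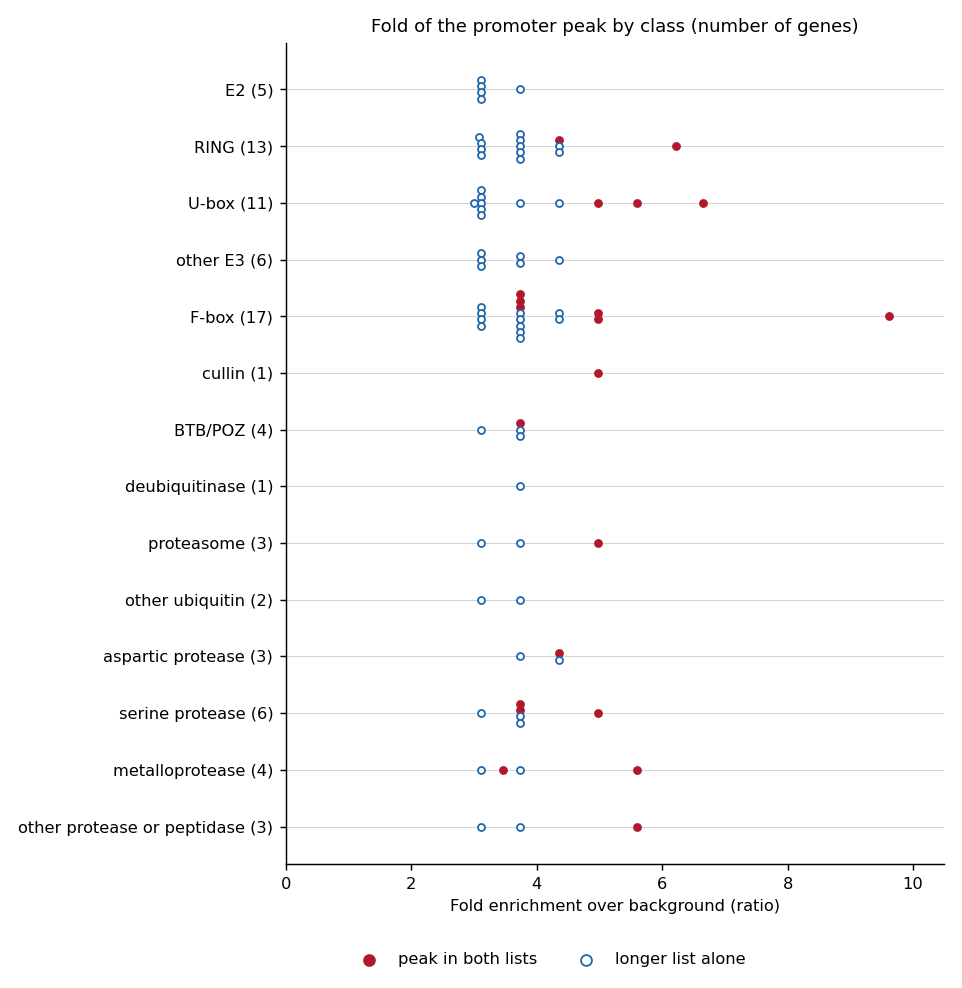
Fold enrichment over background (ratio) of the promoter peak of each of the 79 genes, by class, with the number of genes in brackets. Each point is 1 gene; filled points had a peak in both lists and open points in the longer list alone. The F-box gene at 9.62 and the U-box gene at 6.65 lie to the right, and most points fall in columns at 3.11, 3.73 and 4.35, since fold follows from whole-number pileups on a shared background.

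There were 5 E2 genes, with 4 at a pileup of 4 and 1 at 5. None was in both lists, which for 5 genes has a Wilson interval of 0 to 43.4% and so covers the 34.3% over all genes. GH_D07G1051 and GH_A05G0976 are both described as UBC7-type enzymes and had 3.73-fold and 3.11-fold peaks, 902 and 1438 bp upstream. GH_D07G1318, annotated by the authors as the UBC11 type that serves mitotic cyclin degradation in animals and fission yeast, had 3.11-fold at 1424 bp. The E2-17 kDa genes GH_A09G2337 and GH_D08G0316, of the broadly acting UBC4/UBC5 type, also had 3.11-fold. The peak at GH_A09G2337, 515 bp upstream, was annotated to the promoters of both this gene and its neighbour GH_A09G2338. No description in the longer list named an E1 enzyme.

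RING ligases formed the second largest class, with 13 genes, and 2 of them were in both lists. Both of these encode ATL-type proteins, membrane-anchored RING-H2 ligases: GH_A06G2038 (6.22-fold, 1611 bp upstream) and GH_D12G0860, of the ATL54 type (4.35-fold, 1583 bp). A pileup of 6 on the lowest background was also seen at GH_A12G1502, RING1-like, and GH_D10G1263, ATL74-like, but in the longer list alone. GH_D13G1979 and GH_D08G2398 share the description of ATL6, which in Arabidopsis acts in defence and in the response to the carbon-to-nitrogen balance. They had 3.73-fold and 3.11-fold, and both peaks were near the start site, at 310 and 481 bp. GH_D05G3341, like RHA2A, a positive regulator of abscisic acid signalling in Arabidopsis, had the member peak closest upstream of a start site, at 96 bp. Its pileup of 6 stood on a background of 1.27, which gave 3.08-fold.

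U-box genes numbered 11, and 3 were in both lists. After GH_A03G1308 these were GH_D09G0893 and GH_A06G1501. GH_D09G0893 is described as PUB17, a ligase of defence-related cell death in Arabidopsis, and had a pileup of 8 and 5.60-fold in a peak 385 bp long, 1464 bp upstream. GH_A06G1501, PUB7-like, had a pileup of 7 and 4.98-fold in a peak 325 bp long at 1220 bp. Of the remaining 8, GH_A10G0956 (PUB5-like) had 4.35-fold, GH_D10G2140 (PUB4-like) 3.73-fold, and 6 had a pileup of 4. The lowest fold of all members, 2.99, was at one of these, GH_A07G2641 (PUB34-like), with a background of 0.670. U-box genes thus spanned the range from the highest pileup among the members to the lowest fold.

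The descriptions of 6 further E3 ligase genes matched none of the words for the RING and U-box classes, and 0 of these genes were in both lists. The split is one of words, since the ATL6-like and RHA2A-like genes above joined the RING class by these names. GH_D03G0172 led with 4.35-fold at 319 bp and is like RNF185, a human ligase of the endoplasmic reticulum. GH_A06G1530 (XBAT35) and GH_D09G1451 (PUB23, a U-box ligase that dampens immune signalling in Arabidopsis) had 3.73-fold at 1698 and 1679 bp. GH_A05G1627, GH_A06G1642 and GH_D07G0573, described as RMA1H1, BOI-related and MBR1 types, had 3.11-fold. All 6 are named for proteins known elsewhere to carry a RING or U-box domain. RING, U-box and these other E3 genes together were 30, with 5 in both lists (16.7%, Wilson interval 7.34 to 33.6). This pooling was not among the planned classes. The upper bound of its interval lay just below the 34.3% over all genes. The interval covers the 30.1% of the other genes on the lowest background, where 27 of the 30 peaks lay.

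F-box genes were the largest class, with 17 genes and 6 in both lists. After GH_D09G0915 came GH_A06G0483, another F-box/kelch-repeat gene (pileup 7, 4.98-fold, 1416 bp upstream), and GH_D06G1820, like CPR30, which in Arabidopsis holds down an immune receptor (pileup 7, 4.98-fold, 1655 bp). The other 3 in both lists had a pileup of 5 and 3.73-fold. They were GH_A02G0081, GH_D01G0620, an F-box/FBD/LRR-repeat gene, and GH_D13G1235, of the PP2-B15 type, with peaks at 357, 751 and 1852 bp. GH_A06G0371 is like FBW2, an adaptor for the small RNA-binding protein AGO1 in Arabidopsis, and had 4.35-fold at 1069 bp. GH_A06G0493, named after F-box protein FBP7, had 4.35-fold at 1612 bp. Both were in the longer list alone. The third F-box/kelch-repeat gene, GH_D01G2314, had 3.11-fold in the member peak farthest from its gene, at 1961 bp.

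F-box proteins of hormone and light signalling were looked for by symbol. By the symbols searched (TIR1, COI1, MAX2, SLEEPY, GID2, EBF1, EBF2, ZEITLUPE, FKF1 and DWARF 3) 0 genes of the longer list matched. By spelled-out names, read after their values were seen, 2 genes are named for proteins of hormone signalling. GH_A11G0655, like AUXIN SIGNALING F-BOX 2, an auxin co-receptor, had a pileup of 5 and 3.73-fold at 1576 bp. GH_D05G0161, like an EIN3-binding F-box protein, which removes the ethylene response factor EIN3, had a pileup of 4, 3.11-fold and a −log10 q of 0.917 at 920 bp. Both were in the longer list alone. The F-box partner of D53 turnover, MAX2 or DWARF 3, was not among the matched descriptions, and at this depth that does not show its promoter to be unbound.

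The scaffold that F-box adaptors bind was represented by 1 gene. GH_A10G1778, cullin-1-like and annotated by the authors as CUL1, had a pileup of 7 and 4.98-fold in both lists, 1173 bp upstream. No description named SKP1, the link between cullin and F-box protein. Of the 4 BTB/POZ genes, all on A chromosomes, only GH_A04G1283 was in both lists, with 3.73-fold at 1298 bp. GH_A05G4056 and GH_A07G2278 had the same fold in the longer list alone. GH_A08G0374 is like POB1, an adaptor reported to act on PUB17 in Arabidopsis and tobacco, and had 3.11-fold at 258 bp. F-box, cullin and BTB/POZ genes together, also pooled outside the planned classes, were 22, with 8 in both lists (36.4%, Wilson interval 19.7 to 57.0). This interval covers the 34.3% over all genes and overlaps that of the 30 RING, U-box and other E3 genes.

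Downstream of the ligases, 3 proteasome genes had a peak. GH_A11G1820, an alpha type-7 subunit of the 20S core, had a pileup of 7 and 4.98-fold in the longest peak of any member, 541 bp, centred 1442 bp upstream. GH_D03G1946, the RPN9 subunit of the regulatory lid, had 3.73-fold at 784 bp, and GH_A05G0741, an alpha type-3 core subunit, 3.11-fold at 599 bp. The only deubiquitinase, GH_A09G1918, is like AMSH1, which trims ubiquitin chains in membrane traffic, and had 3.73-fold at 547 bp. GH_A06G0296, which conjugates the ubiquitin-like modifier UFM1, had 3.73-fold at 1775 bp, and GH_A01G0469, a ubiquitin domain gene, 3.11-fold at 1762 bp.

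Proteases and peptidases counted 16 genes and 7 in both lists (43.8%, Wilson interval 23.1 to 66.8), against 14 of the 63 ubiquitin system genes (22.2%, 13.7 to 33.9). The intervals overlap, and the difference was not tested. The 7 include GH_A07G0221, whose peak lay in an intron and was the promoter peak of its neighbour, as given below. The interval of the ubiquitin system genes narrowly leaves out the 34.3% over all genes. It covers the 30.1% of the other genes on the lowest background, where 59 of the 63 ubiquitin system peaks lay. The interval of the proteases and peptidases covers both shares. The strongest were GH_D06G0099, a leishmanolysin-like peptidase of a metalloprotease family, and GH_D13G2151, an M1 aminopeptidase like APM1, which in Arabidopsis is linked to auxin transport. Each had a pileup of 8 and 5.60-fold in both lists, at 431 and 216 bp upstream. The words for serine proteases matched 6 genes. GH_D05G1265 and GH_A08G0588, given below, are of serine protease types too but their descriptions do not say so. GH_A13G1205, carboxypeptidase Y, a vacuolar enzyme in yeast, led them with 4.98-fold at 1526 bp, and the serine carboxypeptidase-like genes GH_A10G0246 and GH_D02G1237 had 3.73-fold, all 3 being in both lists. GH_A01G1058, a prolyl endopeptidase, and GH_D08G0314, of the subtilisin type SBT5.4, also had 3.73-fold, and the subtilisin GH_A13G2196 had 3.11-fold at 1906 bp.

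The words aspartic and aspartyl took in 3 genes. GH_A05G0632, an aspartyl protease, had 4.35-fold at 1042 bp in the longer list alone. GH_A12G2033 (4.35-fold, 1311 bp, both lists) and GH_A05G2068 (3.73-fold, 460 bp) are isoaspartyl peptidases, enzymes that cleave isoaspartyl bonds and are not aspartic proteases. Among the remaining peptidases, GH_A01G1731, an endoplasmic reticulum metallopeptidase, and GH_D05G1265, the catalytic SEC11A subunit of the signal peptidase, had 3.73-fold at 1891 and 1740 bp. GH_A08G0588, a Do-like protease, had 3.11-fold at 621 bp. No member matched the words for cysteine proteases, and proteases whose description is spelled proteinase or metacaspase are no members. The third M1 aminopeptidase, GH_A07G0221, was listed in both lists with 3.47-fold, but its peak lay 630 bp downstream of the start, in an intron, and was the promoter peak of its neighbour GH_A07G0220.

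Entry into the shorter list went with pileup and length. The shorter list has no pileup below 5. All 12 members with a pileup of 7 or more were in both lists, as were 79.7% of all peaks on the lowest background at a pileup of 7 and 91.2% at 8. Of the 26 members with a pileup of 4, 0 were in both lists, against 1.42% of all such peaks on the lowest background, counted by their gene. In between, 9 members entered with a pileup of 5 or 6. On the lowest background, 6 of 30 members of pileup 5 were in both lists , against 13.9% of the other peaks of that pileup, and 2 of 9 of pileup 6 (22.2%), against 41.0%. The 6 shared members of pileup 5 were 168 to 248 bp long (median 192) and the 24 unshared ones 134 to 459 bp (median 159.5). All 21 shared peaks had the same summit, pileup and fold in both lists and were shorter in the shorter list, with a median of 166 against 206 bp. They therefore add no second measurement. Over all 79 members the median peak length was 161 bp, against 174 bp over all peaks.

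Within the promoter the peaks of the degradation genes were spread from 96 to 1961 bp upstream in 77 of the 79 genes. The exceptions were GH_A07G0221 and GH_A13G2169, an M1 aminopeptidase whose peak centre lay 3 bp inside the gene. The median distance of the 77 was 1216 bp, against 1186 bp over all 2099 peaks within 2000 bp upstream. The nearer 1000 bp held 33 of the 77 (42.9%, Wilson interval 32.4 to 54.0), against 39.2% of all peaks, and the farthest 500 bp held 26 (33.8%), against 31.4%. Both shares are near those over all peaks. Closest to a start site after GH_D05G3341 were GH_A06G1642 (BOI-related, 153 bp) and GH_D06G1129 (PUB45-like, 173 bp), and the farthest after GH_D01G2314 were GH_A05G1627 (RMA1H1-like, 1927 bp) and GH_A13G2196 (1906 bp). All but GH_D05G3341 of these 6 had a pileup of 4. Of 22 upstream members with a pileup of 6 or more, 5 lay in the nearer 1000 bp, against 13 of 25 with a pileup of 4 and 15 of 30 with a pileup of 5. Over all upstream peaks the nearer share was 45.0% at a pileup of 4, 41.4% at 5 and 34.9% at 6 or more. Each lies within the Wilson interval of the members, 33.5 to 70.0%, 33.2 to 66.8% and 10.1 to 43.4%.

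**Figure D3:**
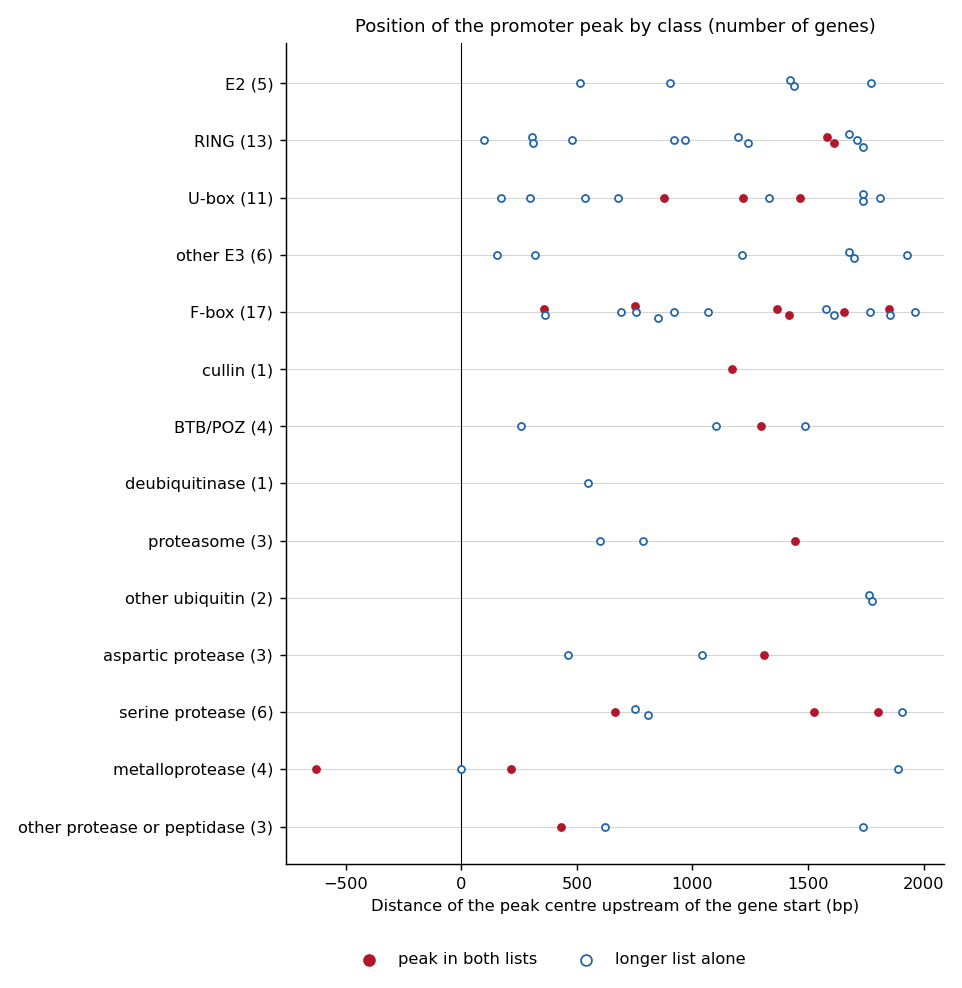
Distance in bp of the peak centre upstream of the gene start for each of the 79 genes, by class, with the number of genes in brackets; values below 0 lie inside the gene. Filled points had a peak in both lists and open points in the longer list alone. Points of the RING, U-box and F-box classes spread over the whole promoter, and the aminopeptidase GH_A07G0221 is the point 630 bp inside its gene.

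**Figure D4:**
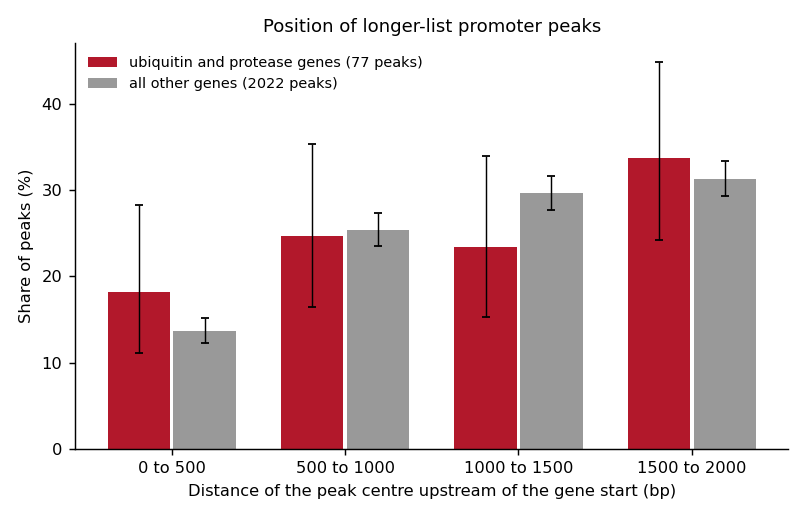
Share of upstream longer-list peaks in percent in each 500 bp of the promoter, for 77 peaks of the ubiquitin and protease genes and 2022 peaks of all other genes. Bars are shares and lines Wilson 95% intervals, which cover counting error only. In the nearest 500 bp the shares were 18.2% and 13.6% and in the farthest 33.8% and 31.3%, with overlapping intervals.

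The cotton genome joins 2 ancestral sets of chromosomes, A and D. Of the 79 genes 46 were on A chromosomes (58.2%, Wilson interval 47.2 to 68.5), against 49.6% of all genes with a peak on either, and 24 of the 26 chromosomes had a member. Only 2 pairs of members shared a description across same-numbered A and D chromosomes, as homoeologs would. The RING1-like genes GH_A07G1092 and GH_D07G1077 had the same pileup of 5 and 3.73-fold, with peaks at nearly the same place, 1679 and 1738 bp upstream. The aminopeptidase genes GH_A13G2169 and GH_D13G2151 had 3.11-fold at the start site and 5.60-fold at 216 bp, and their pileups of 4 and 8 do not differ beyond counting error. Another RING1-like gene, GH_A12G1502, had its peak at 1712 bp with 4.35-fold, so the peak centres of all 3 genes of this description lay 1679 to 1738 bp upstream, a likeness picked out after the values were seen.

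The authors' other annotations bore on the names. Gene ontology terms were given for 39 of the 63 ubiquitin system genes, and 31 of these had a term naming ubiquitin. Of the 12 proteases and peptidases with terms, 10 had one naming proteolysis or a peptidase. GH_A03G1308, the U-box gene with the highest pileup, had terms but none naming ubiquitin.

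Other genes of protein turnover were looked for by words of their description. No gene with NEDD8, RUB1, SUMO, autophagy or protease inhibitor in its description had a peak. The COP9 signalosome, which takes the activating modifier NEDD8 off cullins, had 2 genes, GH_A05G3568 (subunit 3-like, 3.11-fold) and GH_A12G1130 (subunit 7-like, 3.73-fold), both in the longer list alone. Words for chaperones matched 7 genes, a histone chaperone among them. In both lists were 3 of the 7, against 34.3% of all genes, a difference not tested. These 3 were the small heat shock gene GH_D13G1857 (pileup 9, 6.22-fold), the DnaJ-like gene GH_D07G1418 (4.98-fold) and the small heat shock gene GH_D07G0762 (4.35-fold). Among the 8 genes left out by the rule were the plastid-type Clp protease gene GH_D06G0180 and the chloroplast FTSH 7 gene GH_A05G0906, with pileups of 137 and 106 on backgrounds of 50.2 and 26.2, and folds of 2.70 and 3.93. No member had a pileup or a background of that size.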

How the data were processed

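The labels' protocols describe a tagged protein expressed in vitro, a library from genomic DNA and the separation of bound fragments. BWA, ChIPseeker and deepTools 2.5.4 were used, per the submitters' processing notes. Not given in the sources used here are the caller of the peaks, the genome build and any threshold. Coordinates are as in the files. Per the file headers, the authors deposited for each peak a pileup (signal), a fold enrichment (a ratio), and −log10 p-values and −log10 q-values, called on 1 purified against 1 input library.

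The members, classes and word lists were chosen with earlier results of these data known. Members came from the longer list. Classes were taken from words of the description, the first match counting. A gene was in both lists if it also had a shorter-list peak. Distances are from the peak centre to the gene start. Wilson and exact Poisson 95% intervals cover counting error only, and the shares are over genes or peaks of 1 experiment. No test was run. Genes named were all in both lists, the 3 with the highest fold per class, the 3 nearest, the 3 farthest and the 3 with the highest pileup, all pairs of the same description on same-numbered chromosomes, and further members by class. Calculations used Python 3.11.15, pandas 2.3.3 and SciPy 1.17.1, and the steps were tested on simulated data. Alternatives were stricter q-values, other words, the shorter list, 50% overlap and summit distances.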

Additional observations from a re-analysis of the deposited data

How the results depend on the processing

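Of 77 values recomputed under the alternatives, 65 moved by no more than 1.5 times (counts) or stayed within the binomial 95% interval of the median. Some of the 65 could not move. Every member had 1 peak, so keeping 1 peak per gene changed nothing. The members lost at a q-value of 0.05 were all in the longer list alone with a fold below 5. The counts for both lists (21) and for a fold of 5 or higher (6) were therefore fixed there. At a q-value of 0.05 or lower, 52 member genes were left and 19 peaks lay in the nearer 1000 bp. At 1e-05 or lower, 3 genes were left, all 3 in both lists and with a fold of 5 or higher, with a median fold of 6.65, a median pileup of 17, 1 peak in the nearer 1000 bp and 2 genes on A chromosomes. In the shorter list the 21 members had a median fold of 4.98 and a median pileup of 7, and 6 peaks lay in the nearer 1000 bp. These follow from keeping fewer, higher peaks. Adding genes by the words of their KEGG entry and keeping only the lowest background were alternatives chosen after seeing the data, and gave 84 and 74 genes with the same median fold of 3.73. No paired analysis was possible because each fraction had 1 library. Leaving out a library was not possible for the same reason. Pileups of 4 to 9 cannot be ordered at this depth, and the absence of a gene does not show an unbound promoter.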

Other observations

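The following values were picked after they were seen and were not tested. Chromosome A06 held 9 of the 79 degradation genes, 13.2% of the 68 genes with a peak there, against 3.74% over all chromosomes, while D06 held 3. The 5 members nearest the start of A06, from the PUB4-like gene GH_A06G0240 to the F-box gene GH_A06G0493, had their summits within 4.84 Mb, and their pileups were 4 to 7. D04 and D11 held 0 members, of 62 and 93 genes with a peak.

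Neighbouring members with summits within 500 kb of each other formed 6 pairs. The closest were the subtilisin gene GH_D08G0314 and the E2 gene GH_D08G0316, 12663 bp apart, and the ATL6-like gene GH_D08G2398 and the PUB38 gene GH_D08G2402, 57590 bp apart. GH_D09G0893 (PUB17-like, 5.60-fold) and GH_D09G0915 (F-box/kelch, 9.62-fold), of the 6 members with a fold of 5 or higher, lay 313193 bp apart.

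The description did not find every gene of this kind. The authors' KEGG entry held a word of the rule at 6 further genes. The strongest was GH_A06G2062, described as uncharacterized, with a SIAH1-type RING ligase entry and a pileup of 15 and 9.95-fold, 1070 bp upstream in both lists. Its fold is above that of any member, and the authors' family column calls it HMG. GH_A01G1293 carried a cullin 1 entry beside an unrelated one and had 4.98-fold at a pileup of 7, in the longer list alone. Spelling left out 5 protease genes, all in the longer list alone. They were the metacaspase GH_A08G1668 and the nepenthesin-like aspartic proteinases GH_A09G1518 and GH_D11G0639 at 4.35-fold, the xylem cysteine proteinase GH_D04G1683 at 3.73-fold and the aspartic proteinase GH_A08G2314 at 3.11-fold. With them, 7 of 21 protease and peptidase genes would be in both lists, near the 34.3% over all genes. A gene ontology term naming ubiquitin was found at 27 genes whose description had no word of the rule. Their median pileup was 5, and 8 of them were in both lists, against 34.3% of all genes.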
